A study of Mus musculus with 8 samples.

Results

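The Notch pathway genes described here are the 3 fringe genes (Rfng, Lfng and Mfng), the ligand genes Jag1 and Dll1, the receptor genes Notch1, Notch2 and Notch3, and the target genes Hes1 and Hey1. They are 10 of the 54146 genes in the tables of each library. The set was chosen by gene symbol around Rfng, and Rfng itself was selected on its measured level, because it was higher in GSTM1 KD than in control KD astrocytes. The difference of Rfng between the knockdowns is therefore a description with no test, while the other 9 genes were taken for their place in the pathway, with earlier results of these data known.

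RNA-seq was run on 8 libraries of primary cortical astrocytes from C57BL/6 pups at postnatal days 2 to 5, in 4 groups of 2 biological replicates. The cells carried a lentiviral shRNA against Gstm1, which encodes a glutathione S-transferase (GSTM1 KD), or a non-silencing shRNA (control KD), and were collected at the basal level or after 50 ng/ml TNF-α for 6 h. All groups had been through lentiviral infection, selection with puromycin and removal of CD11b-positive microglia, so the control KD cells are not untreated astrocytes. The knockdown is partial and acts in bulk cultures, in which fewer cells of a type and less RNA per cell cannot be told apart.

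Notch receptors are membrane proteins that are cut when a ligand of the Jagged or Delta-like family on a neighbouring cell binds them. The released intracellular part joins the DNA-binding protein RBPJ in the nucleus and switches on targets such as the Hes and Hey repressor genes. Fringe proteins are Golgi enzymes that extend the O-fucose sugars on the receptors and so alter which ligands a receptor answers to. In the brain the pathway is known for keeping neural progenitors undifferentiated and for its part in forming and maintaining astrocytes.

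The promoter windows of the fringe genes Rfng and Lfng are printed. In the data Rfng separated the knockdowns, and Lfng differed between the replicates of each group, by more in control KD. Each window runs from 250 bases before to 50 bases after the RefSeq transcript start (build GRCm38.p6), 5′ to 3′ on the strand of the gene. The Rfng window is chr11:120784155-120784454 on the minus strand, and its capitals mark the 64 bases between the annotated Rfng and Gps1 genes. The Lfng window is chr5:140607091-140607390 on the plus strand, and its capitals mark matches to the RBPJ motif.
Rfng: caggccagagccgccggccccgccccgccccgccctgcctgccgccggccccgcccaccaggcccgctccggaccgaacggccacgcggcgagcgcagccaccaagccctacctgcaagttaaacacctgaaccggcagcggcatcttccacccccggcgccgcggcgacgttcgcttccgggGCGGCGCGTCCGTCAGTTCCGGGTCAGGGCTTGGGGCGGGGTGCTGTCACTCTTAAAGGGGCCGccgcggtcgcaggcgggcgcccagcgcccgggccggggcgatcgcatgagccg
Lfng: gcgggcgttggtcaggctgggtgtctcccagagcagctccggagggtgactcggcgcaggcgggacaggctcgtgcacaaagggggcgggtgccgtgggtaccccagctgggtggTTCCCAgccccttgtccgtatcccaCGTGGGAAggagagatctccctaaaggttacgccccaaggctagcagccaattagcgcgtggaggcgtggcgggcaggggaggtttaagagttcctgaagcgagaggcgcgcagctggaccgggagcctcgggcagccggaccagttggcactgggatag
Gps1, which encodes a subunit of the COP9 signalosome, starts on the opposite strand 64 bases away from Rfng, and 183 bases of the printed Rfng window lie inside it. The RBPJ core TGGGAA was searched on both strands in the 8 windows that the table holds for 7 of the genes. Lfng was the 1 gene of the 7 with a match, on the opposite strand 135 bases before the start and on the same strand as part of the longer CGTGGGAA, which begins 110 bases before the start. The core was present in 25.6% of the 32851 mouse promoter windows of this length and the longer form in 0.734%. These matches are descriptions of the letters in the window, and the absence of a match says nothing of the factor elsewhere.

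The 8 libraries held 17349676 to 34434633 counts. Gstm1, the targeted gene, had 8153 and 9644 counts in unstimulated control KD and 676 and 626 in unstimulated GSTM1 KD, and after TNF-α 4851 and 6492 against 527 and 405, so its level went with the labels in every library. All 10 astrocyte markers were detected in every library, led by Gfap, which encodes the intermediate filament of astrocytes. Their summed TPM (a level corrected for transcript length and library total) was 1634 and 1608 in the replicate 1 libraries of control KD and between 3557 and 5807 in the other 6 libraries. Without Gfap the sum was 927.5 and 956.9 in replicate 1 of control KD and 1411 to 1668 in the others. Replicate 2 of control KD was then the highest in each state. Replicate 1 of control KD thus stood apart, and results that turn on it are given with and without it. Of the endothelial markers, Cldn5, Tie1 and Emcn were at 3 counts or fewer in every library, as were Kcnj8, Abcc9 and Vtn of the mural markers and P2ry12 of the microglial ones. The summed TPM of the mural markers, most of it from Acta2 (smooth muscle actin), was 3024 to 3953 in control KD and 1535 to 2145 in GSTM1 KD. Without Acta2 it went the other way, with 17.4 and 27.4 against 31.7 and 32.2 without stimulation and 8.1 and 11.0 against 16.7 and 19.1 after TNF-α. In the order of control KD and GSTM1 KD the sums were 2.16 to 7.0 and 1.52 to 4.16 for microglia, 5.75 to 8.27 and 3.18 to 5.40 for endothelial cells, 90.9 to 151 and 56.8 to 93.3 for fibroblasts, and 14.7 to 28.9 and 19.9 to 32.5 for the oligodendrocyte lineage. They were 276 to 296 and 300 to 371 for neurons, 78.9 to 140 and 113 to 139 for ependymal cells, 2.81 to 4.73 and 7.28 to 11.4 for choroid plexus (2.49 to 2.73 and 1.87 to 3.44 without Folr1), and 521 to 719 and 429.5 to 514 for neural progenitors. Without the most abundant gene of each list and within each state, the sums of fibroblast (60.1 to 86.8 and 36.1 to 46.2 over both states, without Col1a1) and neural progenitor markers (without Nes) were lower in every GSTM1 KD library than in the control KD libraries, and those of ependymal markers (14.2 to 23.6 and 28.7 to 34.4, without Foxj1) were higher. Those of neuronal markers (without Map2) overlapped in both states, and those of endothelial markers (without Flt1) were lower in GSTM1 KD without stimulation (3.21 and 2.33 against 1.83 and 1.86) and overlapped after TNF-α.

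Per length, the target genes and Notch1 were the most abundant of the pathway genes in unstimulated control KD, and Dll1 and Mfng the least. There, Hey1 stood at 72.6 ± 8.03 TPM, Hes1 at 61.1 ± 1.92, Notch1 at 54.0 ± 17.2, Lfng at 31.8 ± 23.2, Notch2 at 29.5 ± 6.60, Jag1 at 22.6 ± 10.4, Notch3 at 14.4 ± 3.95, Rfng at 4.44 ± 0.325 and Dll1 at 1.24 ± 0.233 (mean ± SD, n = 2 each). The neighbours from Hes1 down to Notch3 in this order overlapped in their replicate values, whereas Hey1 lay above Hes1, Notch3 above Rfng and Rfng above Dll1 in both libraries. In GSTM1 KD at the basal level, Rfng at 23.3 ± 1.61 TPM stood above Notch3 at 13.9 ± 0.70 and Jag1 at 10.3 ± 0.898, with no overlap. Mfng had 1 count or none in each of the 8 libraries, under the floor of 3 counts, so no level or fold change is given for it.

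**Figure D1:**
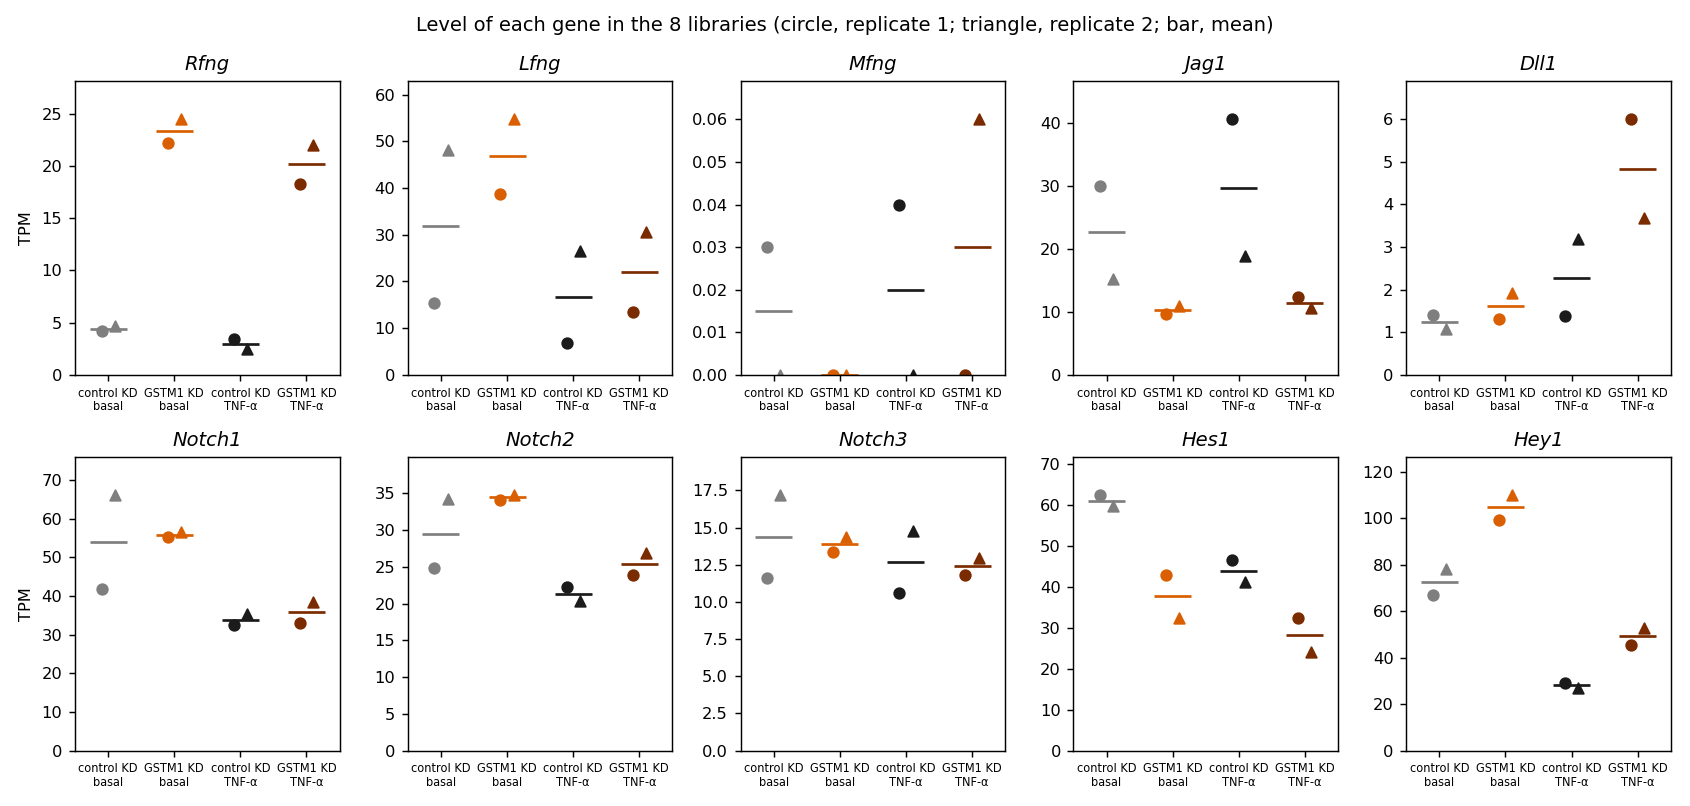
Level in TPM (vertical axes from 0, a scale per gene) of the 10 genes in each of the 8 libraries, grouped along the horizontal axis, with a circle for replicate 1, a triangle for replicate 2 and a bar for the mean of the 2. Rfng is high in the 4 GSTM1 KD libraries, Hey1 is low after TNF-α, Lfng and Jag1 differ between the control KD replicates, and the points of Mfng rest on 1 count or none.

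Rfng (chr11:120780746-120784207 in GRCm38, minus strand) was several times higher in GSTM1 KD astrocytes in both states. In CPM (counts scaled to a common library total, with TMM factors), control KD held 4.80 and 5.28 at the basal level and GSTM1 KD held 23.6 and 25.98. After TNF-α, control KD held 3.92 and 2.83 and GSTM1 KD held 20.2 and 23.7. Every GSTM1 KD library was thus above every control KD library, and the lowest GSTM1 KD value was 4.47-fold over the highest control KD value at the basal level and 5.15-fold over it after TNF-α. The fitted log2 fold change was 2.30 (SE 0.165) at the basal level and 2.66 (SE 0.228) after TNF-α. Leaving out any 1 library kept it between 2.22 and 2.37 and between 2.46 and 2.93. These values are what chose the gene.

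Gps1, the divergent neighbour of Rfng, held 136 to 152 CPM in control KD and 130.5 to 141 in GSTM1 KD over the 4 libraries of each. Its log2 fold change was -0.07 at the basal level (edgeR adjusted p = 0.691, 95% interval -0.35 to 0.20) and -0.10 after TNF-α (edgeR adjusted p = 0.489, 95% interval -0.35 to 0.14). Farther along on the side of Gps1, Dus1l had log2 fold changes of -0.12 and -0.25 (edgeR adjusted p of 0.640 and 0.210). Fasn, the fatty acid synthase gene, held 216 and 260 CPM in unstimulated control KD beside 384 and 527 in GSTM1 KD, and 237 and 252 against 365 and 497 after TNF-α. It was higher in every GSTM1 KD library, with log2 fold changes of 0.94 and 0.79 (edgeR adjusted p of 0.0405 and 0.0352).

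Rfng was not chosen for its response to TNF-α, but this response uses the same libraries as the difference that chose the gene. The tests of this response are thus not independent of the choice. The level of Rfng was lower after TNF-α in both control KD libraries, with a log2 fold change of -0.56 (SE 0.193), which did not pass over all genes (edgeR adjusted p = 0.254). In GSTM1 KD the libraries of the states overlapped in CPM and the log2 fold change was -0.18 (SE 0.170, edgeR adjusted p = 0.935). The response in GSTM1 KD minus that in control KD was 0.39 (SE 0.256) on the log2 scale. It is given without a test because it uses the knockdown contrast. Leaving out any 1 library moved this difference between 0.168 and 0.66. The response itself then ran from -0.835 to -0.345 in control KD and from -0.294 to -0.065 in GSTM1 KD.

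Among the 15331 other genes tested, the profiles most like that of Rfng over the 8 libraries were those of Magee1, Mettl15 and Pmm1, with Pearson's r of 0.999, 0.996 and 0.996 on log2(CPM + 1). Pmm1, a phosphomannomutase of the mannose pathway, held 70.0 ± 2.78 CPM in unstimulated control KD and 118 ± 3.86 in unstimulated GSTM1 KD (SD, n = 2). The likeness is one of shape, since Magee1 went from 63.1 ± 1.42 to 117 ± 2.99 CPM, a smaller ratio than for Rfng. Within the pathway, r with Rfng was -0.84 for Jag1, -0.74 for Hes1, 0.60 for Dll1, 0.58 for Hey1, 0.51 for Notch2, 0.46 for Lfng, 0.17 for Notch1 and -0.15 for Notch3, over 8 libraries that share 4 groups. Rfng was chosen for its knockdown difference, so these r values in large part restate the difference of each gene between the knockdowns.

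At the basal level, GSTM1 KD compared with control KD changed 10.2% of the 14899 genes tested, 4.60% higher and 5.62% lower (adjusted p under 0.05 in edgeR's quasi-likelihood test, Benjamini-Hochberg method). Of the 9 pathway genes other than Rfng, 8 could be tested, and 1 of them, Hes1, passed, in the lower direction. Their median log2 fold change was 0.07, beside -0.002 for all genes tested. After TNF-α, 16.2% of 14593 genes passed, 7.26% higher and 8.92% lower. There, 3 of the 8 passed, with Dll1 and Hey1 higher and Jag1 lower, and their median was 0.11 beside -0.01 for all genes. With so few genes the shares say no more than these counts. The balance of directions over all genes depended on the scaling. With library size alone, 870 genes were higher and 784 lower at the basal level, and 1350 and 1164 after TNF-α.

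**Figure D2:**
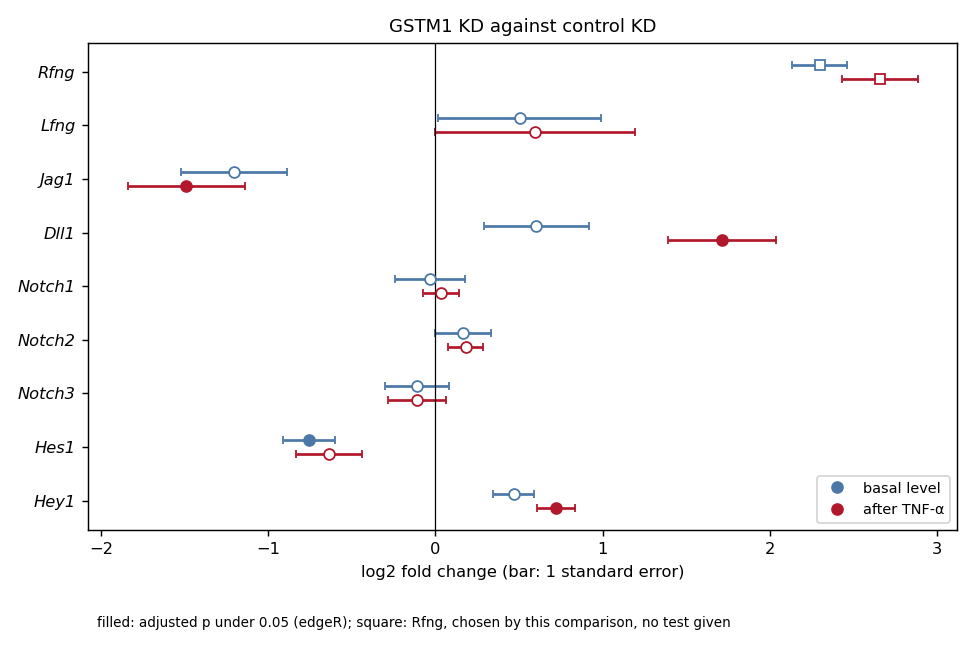
Log2 fold change of GSTM1 KD against control KD (horizontal axis, bars of 1 SE) for 9 genes at the basal level (blue) and after TNF-α (red), with filled circles for an edgeR adjusted p under 0.05. Jag1 and Hes1 lie below 0 and Hey1 and Dll1 above it in both states, the 3 receptors lie between -0.11 and 0.18, and Rfng (squares) is shown without a test because it was chosen by this comparison.

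Lfng (chr5:140607320-140615545, plus strand), a fringe gene, differed between the replicates of each group. Unstimulated control KD libraries held 15.6 and 46.2 CPM, with 37.0 and 50.3 in GSTM1 KD, and after TNF-α the values were 6.46 and 22.3 with 14.8 and 28.9. The groups overlapped in both states, and replicate 1 was the lower one in each group. Among libraries with the same replicate number GSTM1 KD was the higher in both states, but the labels do not say what a number marks. In an alternative fit with replicate number as a block, Lfng passed in both states, at 0.67 (edgeR adjusted p = 0.0175) without stimulation. In the main fit, without a block, its log2 fold change was 0.50 (SE 0.486, edgeR adjusted p = 0.515, 95% interval -0.70 to 1.71) at the basal level. After TNF-α it was 0.60 (SE 0.598, edgeR adjusted p = 0.512, 95% interval -0.89 to 2.08). Without replicate 1 of control KD the values were -0.09 and -0.06, and without replicate 2 of control KD they were 1.48 and 1.73 with edgeR adjusted p of 0.000669 and 0.0118. The sum of the astrocyte markers, lowest in the replicate 1 libraries of control KD, moved with this difference. Not every marker was lowest there. S100b stood at 10.01 and 7.9 TPM in these libraries and at 2.74 to 4.52 in GSTM1 KD. Sox9 stood at 116.4 against 108.2 and 111.0 without stimulation and at 73.03 against 63.49 and 72.74 after TNF-α. The part of the markers in the difference was not tested.

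Jag1 (chr2:137081456-137116644, minus strand), a ligand of the Jagged family, lay below control KD in GSTM1 KD astrocytes of either state and passed after TNF-α. Without stimulation, control KD held 92.9 and 46.7 CPM and GSTM1 KD 29.1 and 31.7. After TNF-α the values were 127 and 59.6 against 35.4 and 32.4. All control KD libraries were above all GSTM1 KD libraries, yet the control replicates differed from each other, with replicate 1 the higher. The log2 fold change was -1.20 (SE 0.318) at the basal level, with an edgeR adjusted p of 0.0691 and a DESeq2 adjusted p of 0.001, and -1.49 (SE 0.351) after TNF-α, with an edgeR adjusted p of 0.0444. Without replicate 1 of control KD the log2 fold changes were smaller, at -0.62 and -0.83, with edgeR adjusted p of 0.0183 and 0.00508, and without replicate 2 of control KD they were -1.62 and -1.93. After TNF-α the call was lost when either GSTM1 KD library was left out (edgeR adjusted p of 0.150 and 0.208). The sum of the astrocyte markers was low in the control libraries with high Jag1. Acta2, of the mural markers, was higher in every control KD library than in every GSTM1 KD library, as was Jag1. So were the fibroblast sum without Col1a1 (60.1 to 86.8 against 36.1 to 46.2) and the endothelial sum (5.75 to 8.27 against 3.18 to 5.40). With Col1a1 the fibroblast sums overlapped (90.9 to 151 against 56.8 to 93.3). Of the fibroblast markers, Col1a2 and Foxc1 were lower in GSTM1 KD in each state, while Col1a1, Col3a1, Dcn and Lum overlapped. Without Flt1 the endothelial sums overlapped after TNF-α. The sum of the mural markers other than Acta2 was lower in control KD in each state. Their part in the result was not tested.

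**Figure D3:**
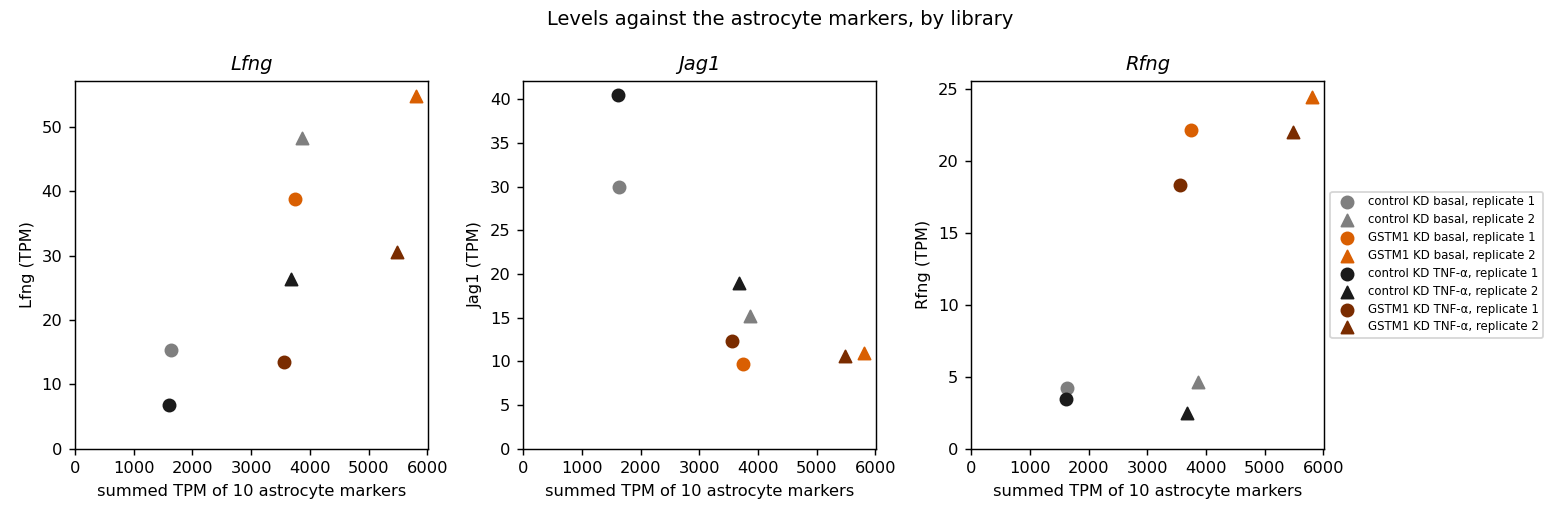
Level in TPM of Lfng, Jag1 and Rfng (vertical axes from 0) against the summed TPM of 10 astrocyte markers (horizontal axis from 0), a point for each of the 8 libraries, with colour for the group and shape for the replicate. The replicate 1 libraries of control KD (marker sums of 1634 and 1608) have the lowest Lfng within each state and the highest Jag1, while Rfng is at 2.48 to 4.67 TPM in the 4 control KD libraries.

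Dll1 (chr17:15367354-15376872, minus strand), a ligand of the Delta-like family, had the lowest CPM values of the 9 tested receptor, ligand, fringe and target genes in unstimulated libraries and was higher in GSTM1 KD after TNF-α. Unstimulated control KD libraries had 55.2 and 35.6 counts and GSTM1 KD libraries 46.5 and 49.8, and after TNF-α these were 44.0 and 34.3 against 172.9 and 88.8. In CPM the levels were 1.55 and 1.41, 2.02 and 2.503, 1.89 and 2.04, and 7.99 and 5.11 in the same order, so that the GSTM1 KD libraries after TNF-α were above all others. The log2 fold change was 1.71 (SE 0.322, edgeR adjusted p = 0.0276) after TNF-α and 0.60 (SE 0.313, edgeR adjusted p = 0.244) at the basal level.

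The size of this difference depended on how the reads of Dll1 were divided among its transcripts. RSEM's effective length for Dll1, the mean length of its transcripts weighted by their estimated abundance, was 1075 bases in replicate 2 of control KD after TNF-α and 1908 to 2720 in the other libraries. Per length, the same library reached 3.19 TPM, against 1.37 in its replicate and 5.99 and 3.67 in GSTM1 KD. With the effective lengths as offsets the log2 fold change after TNF-α was 1.14 and no longer passed (edgeR adjusted p = 0.164). It did not pass either without GSTM1 KD replicate 1 or replicate 2 (edgeR adjusted p of 0.153 and 0.0878). Dll1 also shares 867 exonic bases with A930024N18Rik on the opposite strand, which had 3.43 to 22.2 counts per library, and whether the counting used strand is not given in the sources used here.

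Of the receptor genes Notch1 (chr2:26457903-26516663, minus strand), Notch2 (chr3:98013527-98150361, plus strand) and Notch3 (chr17:32120820-32166852, minus strand), none passed in either state. Notch1 held 226 and 343 CPM in unstimulated control KD beside 267 and 289 in GSTM1 KD, and 161 and 185 against 177 and 182 after TNF-α, with the groups overlapping in both states. Its log2 fold change was -0.03 (edgeR adjusted p = 0.934, 95% interval -0.55 to 0.49) and 0.03 (edgeR adjusted p = 0.851, 95% interval -0.24 to 0.30). After TNF-α the interval thus leaves out a change of the size seen in Jag1 or Dll1 in that state. Notch1 shares 1068 exonic bases with 0610009E02Rik on the opposite strand, which had 5.56 to 35.05 counts per library.

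Notch2 held 149 and 203 CPM in unstimulated control KD beside 195 and 200 in GSTM1 KD, and 135 and 125 against 143 and 157 after TNF-α. The log2 fold changes were 0.17 (SE 0.166, edgeR adjusted p = 0.529) and 0.18 (SE 0.105, edgeR adjusted p = 0.264). Notch3 held 53.1 and 78.1 CPM against 58.3 and 63.0 without stimulation and 48.7 and 69.2 against 53.6 and 57.4 after TNF-α, with the GSTM1 KD libraries between the control KD libraries in both states. Its log2 fold change was -0.11 in each state (edgeR adjusted p of 0.726 and 0.689). Without replicate 2 of control KD at the basal level the log2 fold change was 0.40 for Notch2 and turned to 0.18 for Notch3. Without replicate 1 of control KD it turned to -0.041 for Notch2 and was -0.367 for Notch3.

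Of the target genes, Hes1 was lower and Hey1 higher in GSTM1 KD in each state, and each passed in 1 state, Hes1 at the basal level and Hey1 after TNF-α. Hes1 (chr16:30064384-30067796, plus strand), a repressor that Notch switches on directly, held 40.7 and 39.3 CPM in unstimulated control KD beside 26.5 and 20.8 in GSTM1 KD, and 32.7 and 26.5 against 22.1 and 16.6 after TNF-α. The GSTM1 KD libraries were below the control KD libraries of the same state. The log2 fold change was -0.76 (SE 0.153, edgeR adjusted p = 0.0398) at the basal level and -0.64 (SE 0.196, edgeR adjusted p = 0.0796, DESeq2 adjusted p = 0.0425) after TNF-α. Without GSTM1 KD replicate 1 or replicate 2 the basal difference did not pass (edgeR adjusted p of 0.122 and 0.307), nor did it with effective length offsets (-0.75, edgeR adjusted p = 0.051), and without replicate 1 of control KD it was -0.73 (edgeR adjusted p = 0.0301). The summed TPM of the neural progenitor markers was, like Hes1 and Jag1, lower in every GSTM1 KD library than in the control KD libraries of its state. It was 590.2 and 719 against 514 and 509 without stimulation and 521 and 607 against 429.5 and 463 after TNF-α, and without Nes 272 and 334 against 255 and 241 and then 228 and 259.5 against 198 and 213. Of the 4 markers Nes and Sox2 were lower in each state, Pax6 was higher (32.5 and 36.2 against 40.5 and 36.4 TPM, then 23.5 and 24.8 against 33.2 and 35.2) and Dcx was at 3 counts or fewer. Their part in the result was not tested.

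Hey1 (chr3:8663359-8667256, minus strand), the other Notch target, held 84.8 and 98.6 CPM in unstimulated control KD beside 120 and 133 in GSTM1 KD, and 37.4 and 35.5 against 57.7 and 64.8 after TNF-α. Here the GSTM1 KD libraries were the higher ones in each state. The log2 fold change was 0.47 (SE 0.124, edgeR adjusted p = 0.0698, DESeq2 adjusted p = 0.0453) at the basal level and 0.72 (SE 0.111, edgeR adjusted p = 0.0189) after TNF-α. The latter did not pass without GSTM1 KD replicate 1 or replicate 2 (edgeR adjusted p of 0.0911 and 0.167) and passed without replicate 1 of control KD (0.77, edgeR adjusted p = 0.00832). Leaving out 1 GSTM1 KD library left at most 3 genes past the threshold over the whole table at the basal level and at most 94 after TNF-α.

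TNF-α changed 2.63% of 15332 genes in control KD, 2.10% higher and 0.528% lower, and 2.65% in GSTM1 KD, 2.35% higher and 0.294% lower. Of the 10 pathway genes, 9 could be tested. In control KD 1 passed, Hey1, which fell, and in GSTM1 KD 2 passed, Hey1, which fell, and Dll1, which rose. The medians of the 9 were -0.44 and -0.29 on the log2 scale, beside -0.02 and -0.01 for all genes tested.

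**Figure D4:**
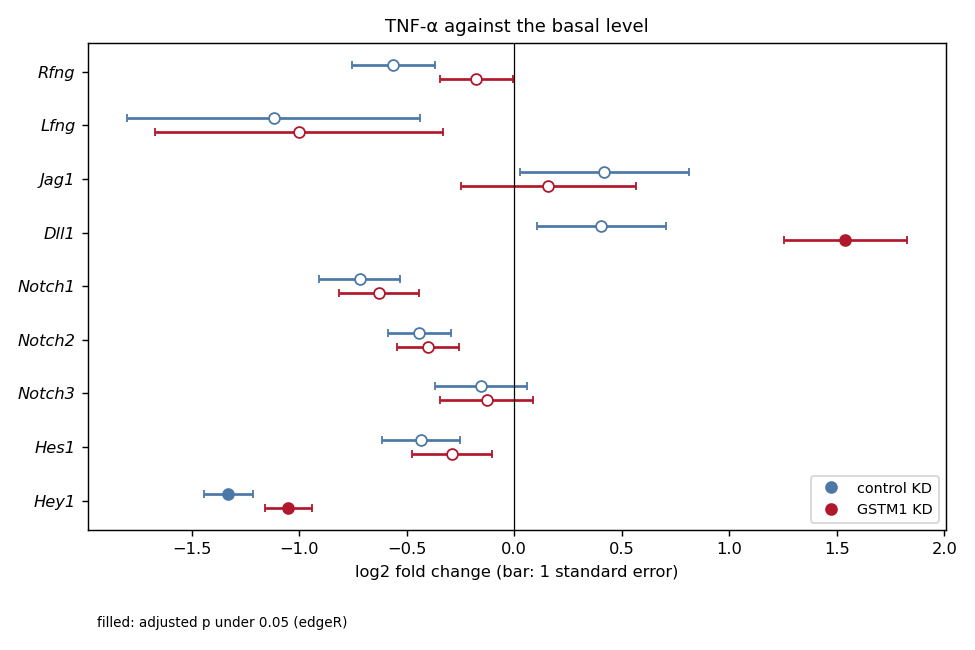
Log2 fold change of TNF-α against the basal level (horizontal axis, bars of 1 SE) for 9 genes in control KD (blue) and GSTM1 KD (red), with filled circles for an edgeR adjusted p under 0.05. Hey1 is lower after TNF-α in both knockdowns (-1.33 and -1.05), and Dll1 is the gene in which the knockdowns lie farthest apart (0.40 and 1.54).

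The fall of Hey1 was the steadiest response. From the CPM values above, the highest TNF-α library of control KD was 2.27-fold under the lowest basal library, and in GSTM1 KD this gap was 1.85-fold. The log2 fold change was -1.33 in control KD (SE 0.113, edgeR adjusted p = 0.00229) and -1.05 in GSTM1 KD (SE 0.111, edgeR adjusted p = 0.00421). It passed in all 17 alternative fits in control KD, the fit without replicate 1 of control KD in either state among them (-1.47), and in 15 of 16 in GSTM1 KD, where it missed without GSTM1 KD replicate 2 of the basal level (edgeR adjusted p = 0.0605).

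Dll1 rose in GSTM1 KD by a log2 fold change of 1.54 (SE 0.286, edgeR adjusted p = 0.0394) and had 0.40 (edgeR adjusted p = 0.753) in control KD. The rise passed in 7 of 16 alternative fits, and with effective lengths as offsets it was 1.63 with an edgeR adjusted p of 0.169. The difference between the responses was 1.13 (SE 0.413), with an unadjusted p of 0.0278 and an edgeR adjusted p of 1.0, so a difference between the knockdowns was not shown.

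Notch1 and Notch2 were lower after TNF-α in every library of either knockdown than in every basal library of the same knockdown, but did not pass. For Notch1 the log2 fold change was -0.72 in control KD (SE 0.188, edgeR adjusted p = 0.124, DESeq2 adjusted p = 0.0163) and -0.63 in GSTM1 KD (SE 0.188, edgeR adjusted p = 0.202). For Notch2 it was -0.44 (edgeR adjusted p = 0.237) and -0.40 (edgeR adjusted p = 0.336). Leaving out any 1 library moved the value in control KD between -0.989 and -0.375 for Notch1 and between -0.647 and -0.193 for Notch2. Without both replicate 1 libraries of control KD, the values in control KD were -0.89 for Notch1 and -0.70 for Notch2 and passed (edgeR adjusted p of 0.0176 and 0.0373), with each remaining control library assumed to vary like the other groups. Lfng had -1.12 (SE 0.682, edgeR adjusted p = 0.650) and -1.0 (SE 0.669, edgeR adjusted p = 0.778). With 1 library left out at a time the value of Lfng in control KD ran from -2.24 (without replicate 2 after TNF-α) to -0.13 (without replicate 2 at the basal level), and without both replicate 1 libraries of control KD it was -1.05, none of which passed. Jag1 had 0.42 (SE 0.393, edgeR adjusted p = 0.847) and 0.16 (SE 0.406).

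For the difference of the TNF-α responses between the knockdowns, 0.0% of the 15332 genes passed in edgeR, with 295 at an unadjusted p under 0.05, while DESeq2 called 27. None of the 8 pathway genes passed, and Dll1 was the 1 of them with an unadjusted p under 0.05. For Hey1 the difference was 0.28 (SE 0.157, 95% interval -0.09 to 0.65).

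The rest of the pathway was taken from a list of 50 genes in 8 roles, of which 47 could be tested. At the basal level 5 were higher in GSTM1 KD and 2 lower, and after TNF-α 7 were higher and 1 lower, to be read against the 10.2% and 16.2% of all genes. Their median log2 fold change was 0.19 and 0.16. The 5 that passed in both states, each in the same direction in both, were Dlk2, Dner, Furin and Psen2, which were higher, and Rbpj, which was lower. The share of all genes that passed in both states is not given here, so the 5 are a list and not a result about the pathway. None of the 47 passed in the main edgeR fit for TNF-α in either knockdown, nor for the difference of the responses. At an unadjusted p under 0.05 there were 10 in control KD, 8 in GSTM1 KD and 0 for the difference. Over all 15332 genes tested these numbers were 1920, 1670 and 295.

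**Figure D5:**
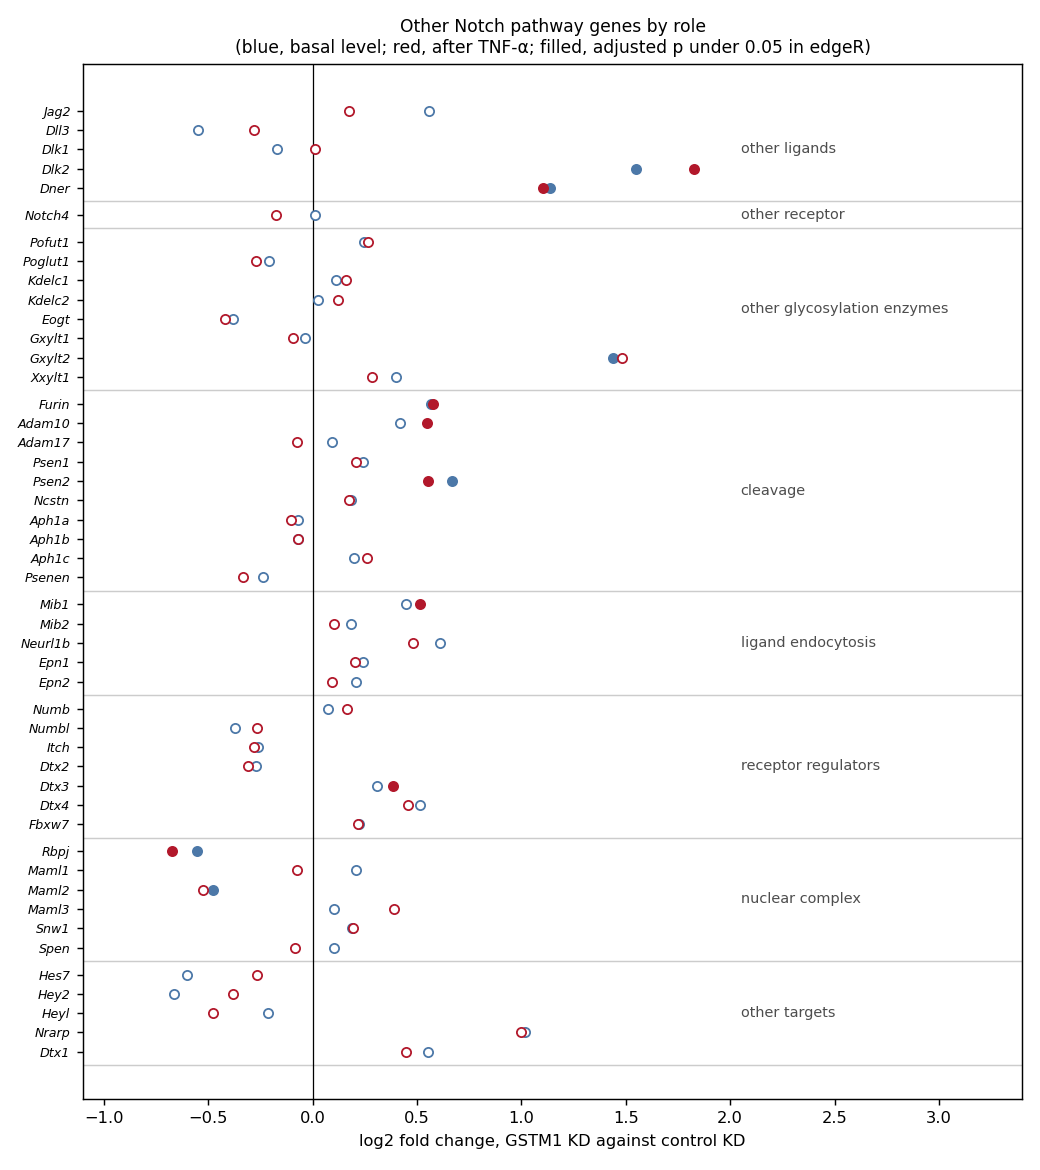
Log2 fold change of GSTM1 KD against control KD (horizontal axis) for 47 other genes of the Notch pathway, grouped by role along the vertical axis, at the basal level (blue) and after TNF-α (red), with filled circles for an edgeR adjusted p under 0.05. Dlk2 and Dner among the ligands lie to the right in both states, and Rbpj and Maml2 in the nuclear complex to the left.

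Of the 5 other ligand genes tested, Dlk2 and Dner, which are non-canonical ligands, rose in GSTM1 KD. Dlk1, also non-canonical, had log2 fold changes of -0.17 and 0.01 (edgeR adjusted p of 0.321 and 0.963). Dlk2 held 10.2 and 12.1 CPM in unstimulated control KD beside 28.5 and 36.7 in GSTM1 KD, and 6.29 and 7.10 against 19.2 and 29.2 after TNF-α. There was no overlap, and the log2 fold changes were 1.55 and 1.83 (edgeR adjusted p of 0.0183 and 0.0151). Dner held 46.3 and 71.7 CPM against 112 and 147 and then 41.5 and 65.2 against 105 and 128, with log2 fold changes of 1.14 and 1.10 (edgeR adjusted p of 0.0437 and 0.0335).

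In the nuclear complex, Rbpj, the DNA-binding partner of the cut receptor, fell in GSTM1 KD in either state. Rbpj held 159 and 172 CPM in unstimulated control KD beside 107 and 118 in GSTM1 KD, and 208 and 194 against 126 and 130.2 after TNF-α. Its log2 fold changes were -0.55 and -0.67 (edgeR adjusted p of 0.0403 and 0.0178). Maml2, a co-activator of the complex, fell at the basal level (-0.48, edgeR adjusted p = 0.0392) and had -0.52 after TNF-α (edgeR adjusted p = 0.0668).

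Among the genes for receptor cleavage, Furin, the protease that cuts the receptor on its way to the membrane, was higher in GSTM1 KD than in control KD by 0.57 without stimulation and 0.58 with TNF-α on the log2 scale (edgeR adjusted p of 0.0474 and 0.0341). Psen2, a catalytic subunit of γ-secretase, was higher in GSTM1 KD by 0.67 and 0.55 (edgeR adjusted p of 0.0403 and 0.0438). Adam10, the protease that cuts the ligand-bound receptor, was higher in GSTM1 KD than in control KD in the TNF-α state (0.55, edgeR adjusted p = 0.0388). The other subunit genes of γ-secretase did not pass in either state. In the remaining roles, Gxylt2, a xylosyltransferase that acts on O-glucose of the receptors, was higher in GSTM1 KD at the basal level (1.44, edgeR adjusted p = 0.0453), and Mib1, the ubiquitin ligase for ligand endocytosis, and Dtx3, of the Deltex family of Notch regulators, were higher in GSTM1 KD in the TNF-α state (0.52 and 0.39, edgeR adjusted p of 0.0358 and 0.0434). The call of Dtx3 was lost in DESeq2 (adjusted p = 0.0668) and with effective length offsets (edgeR adjusted p = 0.507). Leaving out either GSTM1 KD library of a state lost each of the 7 basal and 8 TNF-α state calls among the other pathway genes, and the basal calls of Furin and Gxylt2 and the TNF-α state calls of Psen2 and Dtx3 passed in 8 of 12 alternative fits. For Gxylt2 and Maml2, which passed in edgeR at the basal level, the DESeq2 adjusted p after TNF-α was 0.00138 and 0.0333. No gene of the other target list (Hes5, Hes7, Hey2, Heyl, Nrarp and Dtx1) passed in edgeR, and Hes5, with 2 to 6 counts per library, was too low to test. Dtx1 had 0.55 at the basal level, with an edgeR adjusted p of 0.0605 and a DESeq2 adjusted p of 0.0292. Nrarp had 1.02 and 1.0 in the 2 states (edgeR adjusted p of 0.0884 and 0.087), and Hes7, Hey2 and Heyl had -0.66 to -0.21 (edgeR adjusted p of 0.203 to 0.857).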

How the data were processed

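RNA-seq of 8 astrocyte libraries was analysed, mapped to groups from their labels. Per the submitters' processing notes, reads were processed with STAR (version 2.5.4b) and RSEM (version 1.3.0) on GRCm38. The expected counts deposited by the authors are RSEM estimates of fragments per gene, with reads shared by several transcripts or genes divided among them. The TPM values deposited by the authors are scaled for length and depth and were used for levels between genes. The effective lengths deposited by the authors entered 1 alternative. The kit keeps strand, but use of strand in counting is not given in the sources used here.

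Expected counts were rounded and fitted with edgeR (version 4.0.16, R version 4.3.3), with TMM factors, filterByExpr and quasi-likelihood F-tests, adjusted over all genes tested by the Benjamini-Hochberg method at 0.05. Knockdown contrasts used the 4 libraries of a state, and TNF-α responses and their difference all 8. Intervals of log2 fold changes cover 95% by the fitted model. Library totals were 17349676 to 34434633, and 3 counts was the floor. DESeq2 (version 1.42.0) was an alternative, beside other scaling, filters, libraries and length offsets; the fit without both replicate 1 libraries of control KD was added after seeing the data. Where a library was left out, the lone one of its group was assumed to vary like the other groups. Procedures were tested on simulated data. Replicates are biological per the study, and since 2 libraries against 2 cannot reach 0.05 in a permutation test, p-values come from the fits across genes.

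The members, lists and tests were chosen with earlier results of these data known. Genes named are the members, those of the 50 other pathway genes that passed in a knockdown contrast, the other target genes, Dlk1 (named after its values were seen), 3 neighbours of Rfng (Gps1, Dus1l and Fasn) and the 3 genes with the highest Pearson's r with Rfng on log2(CPM + 1). Some items of the pathway and marker lists are not reported here. Marker lists were of astrocytes, microglia, oligodendrocyte lineage, endothelial, mural, fibroblast, neuron, ependymal, choroid plexus and progenitor cells. Coordinates are from GENCODE M21 (GRCm38), and promoter windows from RefSeq (GRCm38.p6). Figures were drawn with matplotlib (version 3.10.9, Python version 3.11.15).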

Additional observations from a re-analysis of the deposited data

How the results depend on the processing

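Of 369 values of the pathway genes under other tools, scalings, filters or libraries, 335 kept their direction and, where tested, their side of the threshold. Another 26 came past it, 4 fell short of it, 2 moved and 2 reversed, the cause of which was not tested. Rfng is counted by direction alone in the knockdown contrasts, which chose it, and in the difference of the responses. The reversed values were Notch1 at the basal level (0.0) and Lfng in the difference of the responses (-0.14), both with effective length offsets. The TPM values moved Dll1 to log2 differences of 0.38 and 1.17. With DESeq2, 2494 genes passed at the basal level, 738 for TNF-α in control KD, 629 in GSTM1 KD and 27 for the difference of responses, and with no filter 3957, 4540 (after TNF-α), 1255, 1050 and 134. All 8 libraries gave 2762 at the basal level, and the 4 libraries of 1 knockdown 72 and 691 for TNF-α. Of the pathway genes at the basal level, 3 passed with DESeq2 (beside 2494 of all 24716 genes) and 4 with no filter (3957 of 24716). There were 2 with library size alone (1654 of 14899), 0 with length offsets (1336 of 14899) and 2 with all 8 libraries (2762 of 15332). No filter gave 5 after TNF-α, 4 and 5 for the responses to TNF-α in control KD and GSTM1 KD, where DESeq2 gave 2 in control KD and length offsets 1 in GSTM1 KD.

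The labels do not say what a replicate number marks, and with 2 numbers the pairing cannot be judged. The correlation of the difference between the numbers over 15332 genes ran from 0.248 to 0.731 between groups. A replicate block gave 4712 genes at the basal level, 4303 after TNF-α, and 988 and 808 for TNF-α in control KD and GSTM1 KD. Of the pathway genes 4, 5 and 2 passed with the block at the basal level, after TNF-α and for TNF-α in control KD, and Lfng had an edgeR adjusted p of 0.0175 and 0.0363 in the knockdown contrasts.

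Without 1 library at a time, the genes past the threshold ran from 1 to 5256 at the basal level, 0 to 5028 after TNF-α, 180 to 313 (319 without both replicate 1 libraries of control KD, with 3 pathway genes and Notch2 at 0.30 in the difference of responses) and 74 to 444 for TNF-α in control KD and GSTM1 KD, and 0 to 2 for the difference of responses, and the pathway genes from 0 to 5, 0 to 5, 1 to 3, 0 to 2 and 0 to 0. In the knockdown contrasts the highest counts came without replicate 2 of control KD and the lowest without a GSTM1 KD library. Reversals of log2 values stayed short of the threshold. At the basal level Lfng ran from -0.089 to 1.48, Notch1 from -0.31 to 0.29, Notch2 from -0.041 to 0.40 and Notch3 from -0.37 to 0.18. After TNF-α Lfng ran from -0.056 to 1.73, Notch1 from -0.059 to 0.14 and Notch3 from -0.34 to 0.17. For TNF-α in control KD Notch3 ran from -0.41 to 0.16 and Jag1 from -0.24 to 1.00. In the difference of responses Lfng ran from -0.87 to 1.23, Notch1 from -0.26 to 0.36, Notch2 from -0.21 to 0.25, Notch3 from -0.29 to 0.28, Jag1 from -0.84 to 0.40 and Hes1 from -0.084 to 0.33. The cause was not tested. Mfng and Hes5 had too few counts to test.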
